A study of Mus musculus with 285 samples.

Results

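The collagen genes are the family that encodes the triple-helical structural proteins of connective tissue. Here they were taken as every gene whose symbol is Col followed by a digit and that had a value in at least 80% of the samples. This gave 34 collagens among 11622 named genes. By the kind of structure the protein builds, 9 are fibrillar, 8 belong to basement membranes, 4 to beaded filaments, 5 to the FACIT group that sits on fibril surfaces, 3 form networks, 4 span the cell membrane and 1, Col26a1, stands outside these classes. Col3a1, Col4a5, Col6a5, Col6a6, Col9a3, Col16a1, Col20a1, Col22a1, Col24a1 and Col28a1 were not analysed here.

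The samples were skeletal muscle RNA from 285 F2 mice, 1 array per mouse, from intercrosses of C57BL/6J and C3H/HeJ. Each mouse's RNA, labelled with Cy3, was hybridised against Cy5-labelled RNA of a pool made from all the mice, so every value is the log2 ratio of that mouse to the pool. All mice, female and male together, were switched at 8 weeks of age from chow (4% fat) to 12 weeks of Western diet (42% fat, 0.15% cholesterol). Muscle was taken at 20 weeks after a 12 h fast. There is no untreated or chow-only group, and the labels used here give neither the sex, the genotype nor the muscle of each mouse. They form 1 group of 285 animals, numbered from 51 to 362, and the comparisons below are between genes over these animals.

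A collagen molecule is a trimer of alpha chains, and many collagens need chains from different genes. Type I trimers, with type V inside them, form the fibrils of the endomysium, perimysium and tendon. Type IV builds the sheet of the basement membrane around each muscle fibre and capillary, and type VI forms beaded filaments between that sheet and the fibrils. In muscle most of the fibrillar and type VI collagen is made by fibroblasts. In whole tissue, fewer cells of a type and less RNA per cell cannot be told apart.

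The collagen promoters differ in their letters even among genes whose levels moved together. The 4 stretches here are the 100 bases before the annotated start in RefSeq GRCm38.p6, written 5′ to 3′, and they are shown for 3 chains that followed Col1a1 in these mice and for Col11a1, which of the 34 had the largest share of variance between blocks of mouse numbers. Capitals mark GGGCGG and CCAAT, on either strand.
Col1a2, chr6:4505518-4505617, plus strand: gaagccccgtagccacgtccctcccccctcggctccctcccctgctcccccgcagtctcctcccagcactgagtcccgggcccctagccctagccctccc
Col5a1, chr2:27886325-27886424, plus strand: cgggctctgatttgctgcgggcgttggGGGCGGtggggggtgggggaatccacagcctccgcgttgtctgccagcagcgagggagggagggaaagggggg
Col6a3, chr1:90843972-90844071, minus strand: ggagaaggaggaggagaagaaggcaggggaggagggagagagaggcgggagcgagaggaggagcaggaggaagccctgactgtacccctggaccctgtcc
Col11a1, chr3:114030440-114030539, plus strand: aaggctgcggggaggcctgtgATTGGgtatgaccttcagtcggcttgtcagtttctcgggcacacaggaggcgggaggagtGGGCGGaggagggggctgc
The Col11a1 stretch holds 1 CCAAT, on the opposite strand, and 1 GGGCGG, Col5a1 holds 1 GGGCGG, and the other two hold neither. A RefSeq window of 250 bases before and 50 after the start was at hand for 27 of the 34 genes, and the search took the 250 bases before it. GGGCGG, a GC box, was present for 17 of the 27 genes (63%), against 32.7% of 32851 windows over the genome. CCAAT was present for 11 (40.7% against 33.8%), TATAA for 6 (22.2% against 22.8%), the E-box CANNTG for 13 (48.1% against 66.2%) and the AP-1 motif TGANTCA for 1, Col6a1 (3.7% against 6.75%). The 27 genes had 30 windows, and a gene counted if any of its windows held the motif, while the share over the genome is per window. These matches on both strands are a description of the letters, and windows were not matched on base composition.

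The arrays had medians within -0.0222 to 0.0173 on the deposited log10 scale and SDs over features from 0.17 to 0.6 on the log2 scale. Some pairs of arrays ran opposite to each other, with r down to -0.743 and 2.34% of pairs below -0.3. The direction, mouse over pool, is not stated with the values and was kept as the sample titles word it. The pool holds equal parts of all mice, so linear ratios averaged over mice are by design near 1. For the Y-linked gene Eif2s3y it was 0.796, and with the sign turned it was 23.2. Correlations between genes are the same either way, and the levels below would change sign.

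Fibrillar collagens had the highest median SD of the classes with more than 1 member, 0.35 log2 over the mice. Col1a1, the main chain of type I collagen, ran from -2.05 through a median of -0.01 to 2.5 (log2 ratio, SD 0.68, n = 285), and in 30 mice it lay at least 2-fold from the pool. That SD was larger than in 97.4% of named genes. Its partner Col1a2, the other type I chain, ran from -1.03 through 0.04 to 1.03, with an SD of 0.35. Those values are the mean of 2 probes that had r = 0.144 with each other. Their own SDs were 0.59 and 0.3, while Col1a1 rests on 1 probe. Col11a1, a minor chain that sets the width of thin fibrils in cartilage and tendon, ran from -0.96 through 0.07 to 2.09 (SD 0.64) and lay at least 2-fold from the pool in 41 mice, more than any other collagen. The type V chains, which start the assembly of type I fibrils, had SDs of 0.31 (Col5a1), 0.47 (Col5a2) and 0.37 (Col5a3). The other fibrillar chains were Col2a1, the main chain of cartilage, with an SD of 0.31, Col27a1 with 0.28 and Col11a2 with 0.17.

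Among basement membrane collagens the spread was split between chains. Col4a2 ran from -1.82 through 0.33 to 1.17 (SD 0.51) and Col4a1 from -1.28 through 0.21 to 1.15 (SD 0.41), and these are the chains of type IV found in every basement membrane. Col18a1, the source of endostatin, ran from -1.04 through 0.16 to 2.5 (SD 0.43), and its next highest mouse was at 1.76. Col15a1, which lies on the outer face of the muscle and capillary basement membrane, had an SD of 0.31. Col7a1, the anchoring fibril collagen of skin, had 0.26, and the tissue-restricted type IV chains Col4a4, Col4a6 and Col4a3 had 0.20, 0.19 and 0.16. Of the beaded filament chains, Col6a3 ran from -1.22 through 0.14 to 1.35 (SD 0.48), with SDs of 0.36 for Col6a2, 0.22 for Col6a4 and 0.21 for Col6a1.

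The remaining classes held 2 wide-ranging genes and many narrow ones. Col17a1, a hemidesmosome collagen of keratinocytes, ran from -1.06 through -0.12 to 2.35 (SD 0.59), and Col14a1, a fibril-surface collagen of fibroblasts, from -1.02 through -0.02 to 1.18 (SD 0.41). The FACIT chains Col19a1, Col12a1, Col9a1 and Col9a2 had SDs of 0.29, 0.28, 0.15 and 0.12, the last being the smallest of the 34. The network chains Col8a1, Col8a2 and Col10a1 had 0.33, 0.19 and 0.16. The transmembrane chains Col13a1, Col23a1 and Col25a1 had 0.17, 0.17 and 0.16, and Col26a1 had 0.26. Of the 34 collagens, 22 (64.7%) had a larger SD than the median named gene, where 50% is the share over all named genes, and the median SD was 0.29 against 0.21. That held for 8 of 9 fibrillar chains, 5 of 8 basement membrane chains and 1 of 4 transmembrane chains. An SD of a ratio depends also on how bright a probe is, and probe brightness is not analysed here.

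**Figure D1:**
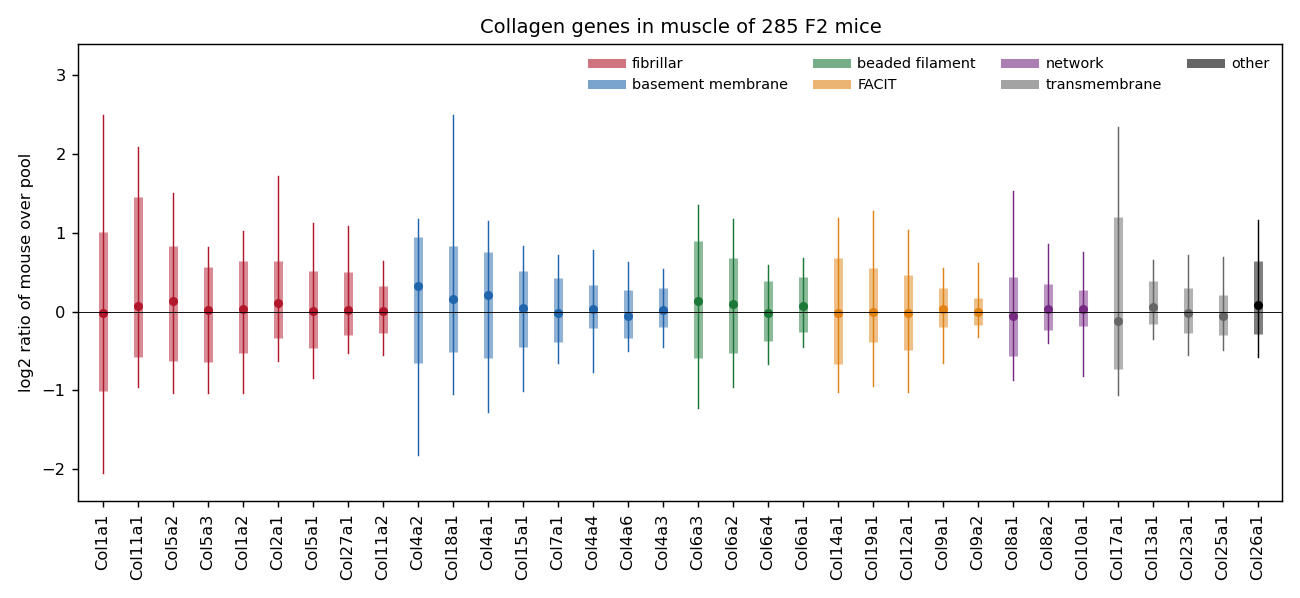
Each column is 1 collagen gene, grouped by class, and the vertical axis is its log2 ratio of mouse over pool. Dots are medians, thick bars run from the 5th to the 95th percentile and thin lines from the lowest to the highest of 285 mice. Col1a1, Col11a1 and Col17a1 have the longest bars, and Col9a2 has the shortest.

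The ends of many ranges came from the same few mice. Mouse 161 held the lowest value of 11 of the 34 collagens, among them Col1a1, Col4a1, Col4a2, Col5a1 and Col6a3, and the median of 13 collagens defined below was -1.0 in it. Mouse 282 held the highest value of 6, among them Col1a1, Col1a2 and Col4a1, with a median of 1.04 over those 13. For Col1a1 the next mice stood at -1.92 and 1.5. Neither array was among the 12 whose SD over features lay more than 1.5 interquartile ranges outside the quartiles. Mouse 134 was: it held the highest Col2a1 (1.72, next 1.09), Col11a2, Col12a1 and Col23a1 and the lowest Col19a1.

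Levels were compared over 18 pairs of chains, most from 1 trimer and the rest from the same fibrils, the same class or different classes. Each pair was compared by Pearson's r, Spearman's rho and a two-sided permutation test with 100000 shuffles. The smallest possible p of that test is 1e-05. The chains of the common type IV trimer, Col4a1 and Col4a2, had r = 0.917 and rho = 0.897 (permutation p = 1e-05 for each). Of 21610 features on the arrays, Col4a2 was the one with the highest r with Col4a1, and its limma slope was 0.46 ± 0.012 (SE) log2 units of Col4a2 per SD of Col4a1 (adjusted p = 3.18e-111 over all features). Both genes were low in the same mice and high in the same mice over the whole range. They lie head to head on chromosome 8 with 21 bases between their annotated starts. Col6a1 and Col6a2, neighbours on chromosome 10 with no protein-coding gene between them, had r = 0.893 and rho = 0.891 (permutation p = 1e-05), and Col6a2 was the feature with the highest r with Col6a1. Col6a3, the third chain of type VI, lies elsewhere and had r = 0.73 with Col6a1 and 0.787 with Col6a2 (permutation p = 1e-05 for each).

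Chains of type I and type V also moved together. Col1a1 and Col1a2 had r = 0.741 and rho = 0.733, and Col1a2 stood at rank 10 of 21610 for Col1a1. Col1a1 and Col5a1, which share fibrils but not a trimer, had r = 0.781 and rho = 0.764, at rank 7. Within type V, Col5a1 had r = 0.787 with Col5a2 and 0.759 with Col5a3. All of these had permutation p = 1e-05. Without the 2 mice that lay farthest out in the first gene, these pairs of type I, IV, V and VI had r from 0.719 to 0.91. The related basement membrane collagens Col15a1 and Col18a1 had r = 0.69 and rho = 0.75 (permutation p = 1e-05). Across classes, Col1a1 had r = 0.657 with Col6a3 and 0.472 with Col4a1 (permutation p = 1e-05 for each).

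Partner chains of other collagens had r of 0.268 or lower over all mice. Col4a3 and Col4a4, neighbours on chromosome 1 that share a trimer, had r = 0.0958 (permutation p = 0.106) and rho = 0.0843 (p = 0.154). Col9a1 and Col9a2 had r = -0.114 (permutation p = 0.0538), and with the means of blocks of 20 mouse numbers removed -0.161 (permutation p = 0.00828 adjusted over the 18 pairs). Col11a1 and Col11a2 had r = -0.0209 (permutation p = 0.727), and with the first principal component of all features as a covariate 0.365 (adjusted permutation p = 0.000138). Col8a1 and Col8a2, the chains of type VIII, had r = 0.268 (permutation p = 2e-05), but 0.124 among the 143 lower-numbered mice (adjusted permutation p = 0.168). Col2a1 had r = 0.275 with Col11a2 (permutation p = 1e-05) and -0.0223 with Col9a1 (p = 0.709), although all 3 build cartilage fibrils. The FACIT pair Col12a1 and Col14a1 had r = -0.235 (permutation p = 5e-05), but -0.155 among the 142 higher-numbered mice (adjusted permutation p = 0.085). In all, 13 of the 18 pairs, those that share no trimer included, had a positive r past an adjusted permutation p of 0.05. The SDs of Col4a3, Col4a4, Col9a1, Col9a2 and Col11a2 were 0.12 to 0.20. There were no repeat arrays, and how much of such a small SD is array noise was not tested.

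**Figure D2:**
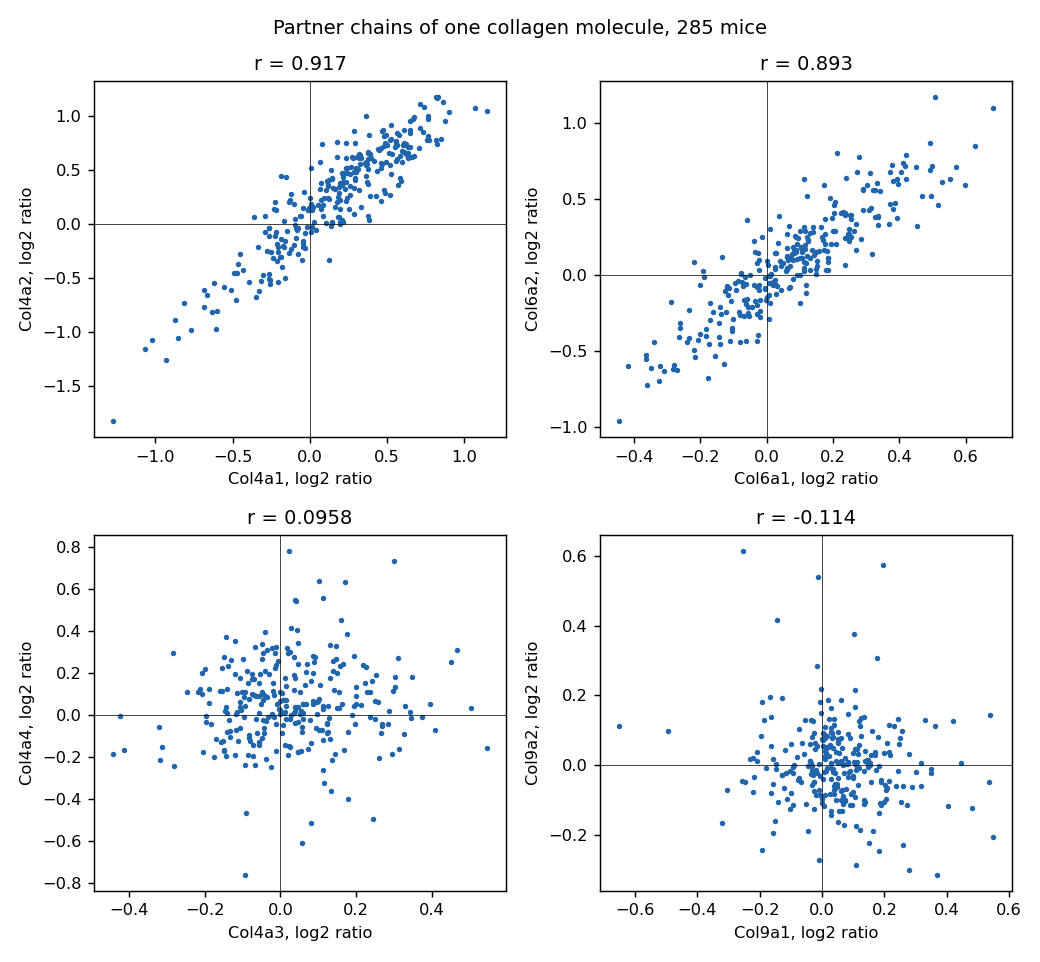
Each point is 1 mouse and both axes are log2 ratios of mouse over pool, for 4 pairs of chains that share a trimer. The upper panels, Col4a1 with Col4a2 (r = 0.917) and Col6a1 with Col6a2 (r = 0.893), form narrow diagonals, and the lower panels, Col4a3 with Col4a4 (r = 0.0958) and Col9a1 with Col9a2 (r = -0.114), form round clouds.

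Over all 561 pairs of collagens the median r was 0.0745, and the range was -0.47 to 0.917. A block of 13 genes stood out in the correlation map and was chosen after its values were seen: Col1a1, Col1a2, Col5a1, Col5a2, Col5a3, Col6a1, Col6a2, Col6a3, Col14a1, Col15a1, Col18a1, Col4a1 and Col4a2. Its 78 pairs had a median r of 0.671, from 0.329 to 0.917, given as a description with no test. It crosses the structural classes: Col5a2 and Col6a3 had r = 0.884, Col6a3 and Col15a1 0.84, and Col5a1 and Col6a2 0.828. By class, fibrillar with beaded filament chains had a median r of 0.555, fibrillar chains among themselves 0.397 and basement membrane chains among themselves 0.00475. A smaller set, also seen only in the map, was Col11a2, Col23a1 and Col6a4, with r = 0.828 for Col11a2 and Col23a1, 0.773 for Col6a4 and Col11a2 and 0.712 for Col6a4 and Col23a1. The lowest r of all was between Col4a6, a chain of smooth muscle and skin basement membranes, and Col11a1, at -0.47.

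**Figure D3:**
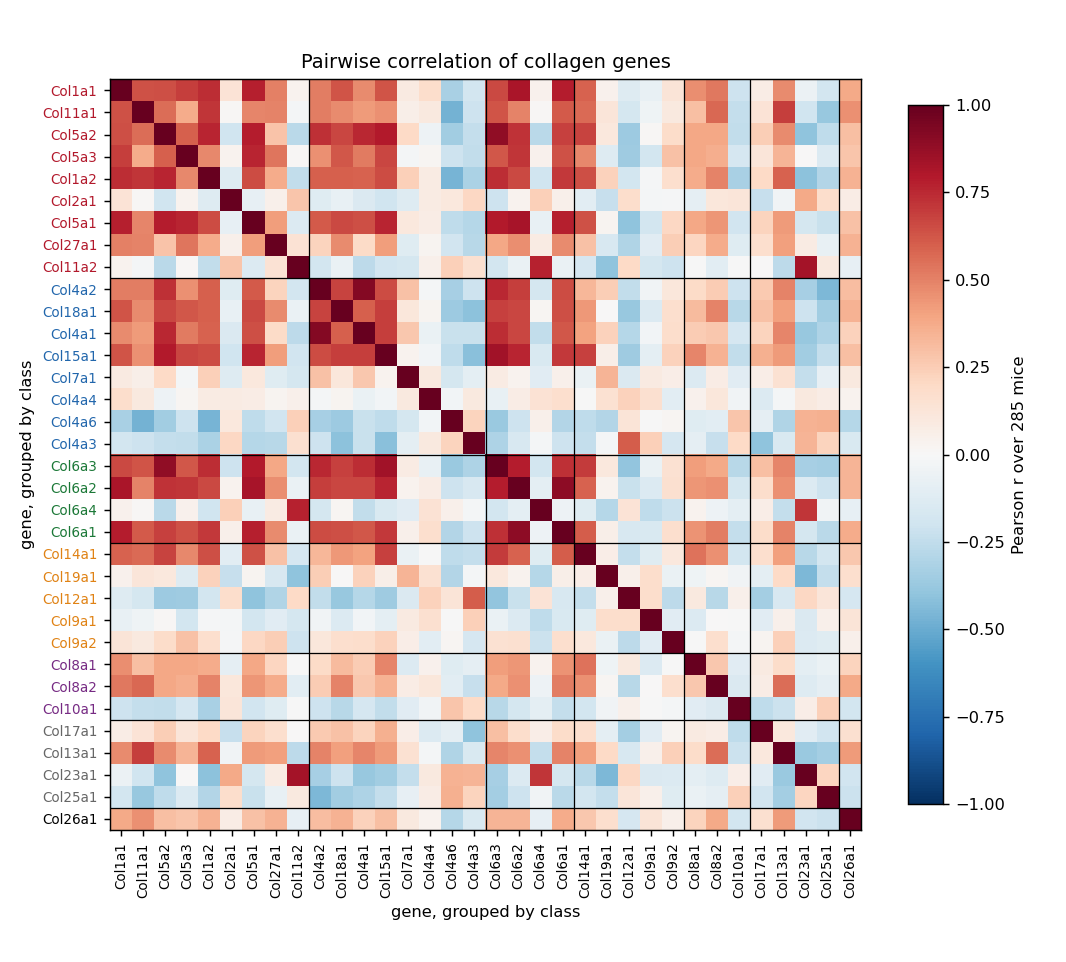
Rows and columns are the 34 collagen genes grouped by class, and colour gives Pearson's r over 285 mice on a scale from -1 to 1. Type I, V and VI chains, Col14a1, Col15a1, Col18a1, Col4a1 and Col4a2 share red cells with one another, with a median r of 0.671, and the remaining chains are mostly pale.

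Against the rest of the array the collagens were frequent among the genes that followed Col1a1. A gene was called when limma's adjusted p over all 21610 features was under 0.05 and the absolute r at least 0.3. Rising with Col1a1, 18 of the other 33 collagens were called, and the share over all features was 5.68%. The highest were Col6a2 (r = 0.813), Col6a1 (0.787), Col5a1 (0.781), Col1a2 (0.741) and Col5a3 (0.693). Col4a6 was the 1 collagen called falling, with r = -0.324 (adjusted p from limma 2.54e-07), where the share over all features was 6.48%. With the means of blocks of 20 consecutive mouse numbers taken out, r for Col4a6 was -0.0889 and it was no longer called. Col13a1 and Col26a1 likewise lost their calls, at 0.245 and 0.228. The median r with Col1a1 was 0.462 over the collagens and -0.0431 over all features.

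Rising with Col4a1, 14 of the other 33 collagens were called against 14.3% of all features, and 2 were called falling, Col23a1 (-0.377) and Col25a1 (-0.306), against 23.1%. After Col4a2 the highest were Col5a2 (r = 0.758), Col6a3 (0.742), Col15a1 (0.689) and Col6a2 (0.671). Over all features the falling share ran from 2.24% to 30.8% with the settings tried, so no direction against it is read from 2 of 33. Both r changed sign, to 0.165 and 0.122, with the first principal component as a covariate. That component held 15.2% of the variance over all features, and its r was 0.684 with Col4a1, 0.778 with Col4a2 and 0.341 with Col1a1. Its part in these results was not tested beyond that covariate.

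The gene other than a collagen that followed Col1a1 most closely was Pcolce. Pcolce, which speeds the removal of the procollagen C-propeptide, had r = 0.843 with Col1a1 (0.772 within number blocks). CERCAM, a cell adhesion protein related to collagen galactosyltransferases, had 0.813, Mfap2, a microfibril protein, 0.791, Mmp2, a gelatinase, 0.782, and Rcn3, an endoplasmic reticulum calcium-binding protein, 0.765. Thbs3, Lrp1, Anpep, Tnc and Stab1 completed the highest 10, at 0.709 to 0.729. The adjusted p of these 10 lay between 1.86e-74 and 4.69e-42 (limma). The lowest 5 were Eif3m, a translation initiation factor subunit (-0.509), Cops4 (-0.492), Usp15, Hoxd9 and Pdcd2 (-0.469). Of these Hoxd9 went to -0.0355 within number blocks, and the other four kept a negative r of -0.244 or lower.

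The gene nearest Col4a1 other than Col4a2 was Igfbp7. Igfbp7, an insulin-like growth factor binding protein of vessels, had r = 0.805, Nid1, which links laminin and type IV collagen, 0.786, and Itga6, a laminin receptor chain, 0.768. Zyx (0.789), Tln1 (0.765) and Lims2 (0.754) belong to cell adhesion sites, and Esam (0.752) to endothelial junctions. Myo1d, Slc12a7 and Rhbdf1 completed the highest 10, at 0.763 to 0.767. The lowest were Vti1b (-0.705), Dusp19 (-0.691), DCUN1D4 (-0.689), Pdcd5 (-0.687) and Glrx3 (-0.678). The lowest of these within number blocks was Glrx3, at -0.606.

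Pathway lists showed which steps of collagen handling moved with the chains. Of 22 measured processing enzymes and chaperones, 11 rose with Col1a1 and 1 fell, led by Pcolce (r = 0.843), Bmp1, the procollagen C-proteinase (0.589), the collagen chaperone Serpinh1 (0.574) and the lysyl hydroxylase Plod3 (0.531). The 1 that fell was Adamts14 (-0.304), a procollagen N-proteinase. With Col4a1, 11 rose and 2 fell, and there Bmp1 (0.718), Plod3 (0.626) and Lox (0.608) had the highest r while Serpinh1 had 0.0831. Of 20 collagen-binding matrix proteins, 13 rose with Col1a1 and 1 fell. The highest were Sparc (0.668), Fmod (0.641, also on the tendon list), Nid2 (0.556) and Fbln2 (0.501), and the one that fell was elastin, Eln (-0.302). With Col4a1, 12 rose and 2 fell, with Eln at -0.593. These shares stand beside 5.68% rising for Col1a1 and 14.3% for Col4a1 over all features.

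Of 12 genes of collagen breakdown, 6 rose with Col1a1 and none fell, with Mmp2 (r = 0.782), the lysosomal collagenase Ctsk (0.518), Mmp14 (0.463) and Fap (0.453) highest. With Col4a1, 5 rose and 1, Mmp8 (-0.389), fell. Of 7 collagen receptors, 2 rose with Col1a1, the integrin chain Itga11 (0.614) and the receptor kinase Ddr2 (0.533), while Ddr1 (0.271) and Lair1 (0.224) missed the call. Of 16 genes of the TGF-beta axis, 6 rose and 1 fell. The storage proteins Ltbp1 (0.475) and Ltbp3 (0.448) and the targets Tgfbi (0.449) and Ccn2 (0.431) led, the receptor Tgfbr1 fell (-0.302), and the ligand Tgfb1 had -0.274 and was not called. With Col4a1, 7 of the 16 rose, Ltbp3 having 0.724, and Tgfb1 fell (-0.399).

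Marker lists of the cells that may be in a muscle sample were set beside each collagen. Each list was also summed into a score, the mean of its standardised genes, and 6 of 223 listed genes stand on more than 1 list. Over all features 5.68% rose and 6.48% fell with Col1a1, and 14.3% and 23.1% with Col4a1. Of 12 fibroblast markers, 8 rose with Col1a1, with Cd34 at r = 0.696 and Fstl1 at 0.598, and 6 rose with Col4a1, with Pdgfrb, also a pericyte marker, at 0.75. The rest were not called. Among them were Pi16 (-0.193), Dcn (-0.0772) and Dpt (-0.0494) with Col4a1, and Pi16 (-0.0884) and Thy1 (-0.023) with Col1a1. Of 15 macrophage markers, 11 rose with Col1a1, with Csf1r at 0.597 and Fcer1g at 0.595, while Cd68 had -0.235. With Col4a1, 7 of the 15 rose and 1, Cd68 (-0.49), fell. Of 9 tendon markers, 7 rose with Col1a1 and 5 with Col4a1. Of 11 endothelial markers, 6 rose with Col4a1 (Esam 0.752, Flt1 0.683, Vwf 0.61), while Cdh5 had -0.288 and Tie1 0.0063 with it and were not called. With Col1a1 none of the 11 rose and Cdh5 (-0.329) fell. Of 7 smooth muscle markers, 5 rose with Col4a1 (Myh11 0.73, Acta2 0.663) and 1 with Col1a1. Of 6 Schwann cell markers, 3 rose with Col4a1 (Pmp22 0.621, Mbp 0.498, Mal 0.418) and Sox10 (-0.4) fell. With Col1a1, 2 of the 6 rose and Sox10 (-0.304) fell. Of 5 white adipocyte markers, 1 rose with each gene, Plin1. Of 4 fast-fibre genes, 1 rose with Col1a1, and 1 rose and 2 fell with Col4a1. For cartilage 2 of 9 rose with Col1a1, Matn4 (0.565) and Cnmd (0.504), which tendon also expresses, and 0 with Col4a1. For bone 0 of 7 were called in either direction with Col1a1. With Col4a1, 1 bone gene rose, Ibsp (0.352), and 1 fell, Sp7 (-0.3735). For keratinocytes 0 of 7 were called with either gene. Of 8 slow-fibre genes, 7 fell with Col1a1, and the r of Col1a1 with the slow-fibre score, which itself falls into clusters of 62 and 223 mice, was -0.00219 once block means were removed. The part of these cell types in the collagen values was not tested.

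Beside the fibroblast score, 16 of 34 collagens were called rising against 3.79% of all features, and none fell, against 0.245%. Col14a1 stood first at r = 0.802 and rho = 0.786, with 0.78 within number blocks. Next came Col5a1 (0.654), Col5a2 (0.652) and Col6a3 (0.625). Col1a1 had 0.554 within blocks. Beside the macrophage score, 15 collagens were called rising against 5.52%, with Col14a1 (0.571), Col5a2 (0.57) and Col5a1 (0.568) highest. None were called falling, against 1.39%.

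Col4a1 and Col4a2 had the highest r of the 34 collagens with endothelial markers. With the endothelium score, Col4a1 had r = 0.732 (rho = 0.696) and Col4a2 0.691 (rho = 0.635), and within number blocks 0.707 and 0.694. The next collagens were Col5a2 at 0.439 and Col6a3 at 0.438, and Col1a1 had 0.152 within blocks. In all, 10 collagens were called rising, against 8.39% of features, and none falling, against 9.06%. With the first component as a covariate 3 (8.82%) were called rising, against 3.93% of features. Among the 142 higher-numbered mice 2 (5.88%) were, against 1.96%. Col4a1 and Col4a2 also had the highest r with the smooth muscle score within blocks, at 0.618 and 0.651, followed by Col18a1 at 0.522.

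Col11a1 was the collagen closest to tendon markers. The tendon score fell into separate clusters of 200 lower and 85 higher mice, so r was taken within each. Col11a1 had r = 0.679 in the lower cluster and 0.661 in the higher, and 0.756 within number blocks. Col1a2 had 0.48 and 0.521, Col1a1 0.427 and 0.596, and Col14a1 0.377 and 0.64. Col13a1, a transmembrane collagen of the muscle-tendon and nerve-muscle junctions, had 0.299 and 0.49. Over all mice 19 of 34 collagens were called rising against 7.13% of features, and 12 were called in each cluster taken alone, where 1.79% (lower) and 2.62% (higher) of features were. With the number block as a covariate 13 were called, against 2.2%, and with the first component 13, against 2.81%. Col4a6 was called falling over all mice, against 14.2% of features, and within the lower cluster (-0.349), against 2.57%. It was not called within the higher cluster (-0.0556) or within number blocks (-0.218). Col5a1 had 0.342 and 0.414 in the lower and higher cluster.

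Col17a1 was high in a small set of mice. It fell into clusters of 264 mice, with a median of -0.18 and a range of -1.06 to 0.76, and 21 mice, with a median of 1.58 and a range of 0.91 to 2.35. Krt14, a keratin of basal skin cells, had medians of -0.31 and 1.56 in the same sets, and its ranges were -0.77 to 1.32 and 0.98 to 2.81. Within the 21 mice Col17a1 and Krt14 had r = 0.812 (permutation p = 1e-05) and rho = 0.801, and within the 264 r = 0.323 and rho = 0.164 (permutation p = 0.00796). Col18a1 had r = 0.0216 with Col17a1 within the 21. Col17a1 was 1 of 4 collagens called rising with the keratinocyte score, against 3.1% of features, and none were called falling, against 1.3%. The others were Col6a4 (r = 0.365), Col23a1 (0.333) and Col11a2 (0.315), the 3 genes of the smaller set above. These 3 lost their calls with the probe of largest SD for every gene, those of the score included (0.288, 0.222 and 0.248). Col6a4 and Col11a2 have 1 probe each, so for them only the score changed there. The 3 also lost their calls among the 142 higher-numbered mice (0.237, 0.0631 and 0.0302) and with the first component (0.299, 0.207 and 0.223). With ranks over all mice, Col17a1 had 0.188 with the keratinocyte score and was not called. In that setting 4 collagens were called rising and 8 falling, against 18.7% and 10.8% of features. Within the 264 mice Col17a1 had r = 0.147 (permutation p = 0.0165) with the score, but rho = 0.0818 (permutation p = 0.184). Within the 21 it had r = 0.65 (permutation p = 0.0017) and rho = 0.631 (permutation p = 0.0027). Col7a1, the other skin collagen here, had -0.0475 with that score.

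Col27a1, a fibrillar collagen of cartilage, had r = 0.515 with the white adipocyte score (0.468 within blocks) and was called rising, and Col19a1 (-0.398) was called falling. That is 1 of 34 each way (2.94%), below the 4.61% and 3.49% of all features, so it is no result about the collagens as a family. Other settings fell on both sides of the share over all features. Among the 142 higher-numbered mice 4 (11.8%) were called rising, against 6.7%, and with scaled arrays 3 (8.82%), against 4.28%. Among the 143 lower-numbered mice 2 (5.88%) were, against 15.4%, and there Col27a1 had 0.247 and was not called. The genes nearest Col27a1 over all named genes were Car13 (r = 0.713) and S100b (0.692), picked after their values were seen.

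**Figure D4:**
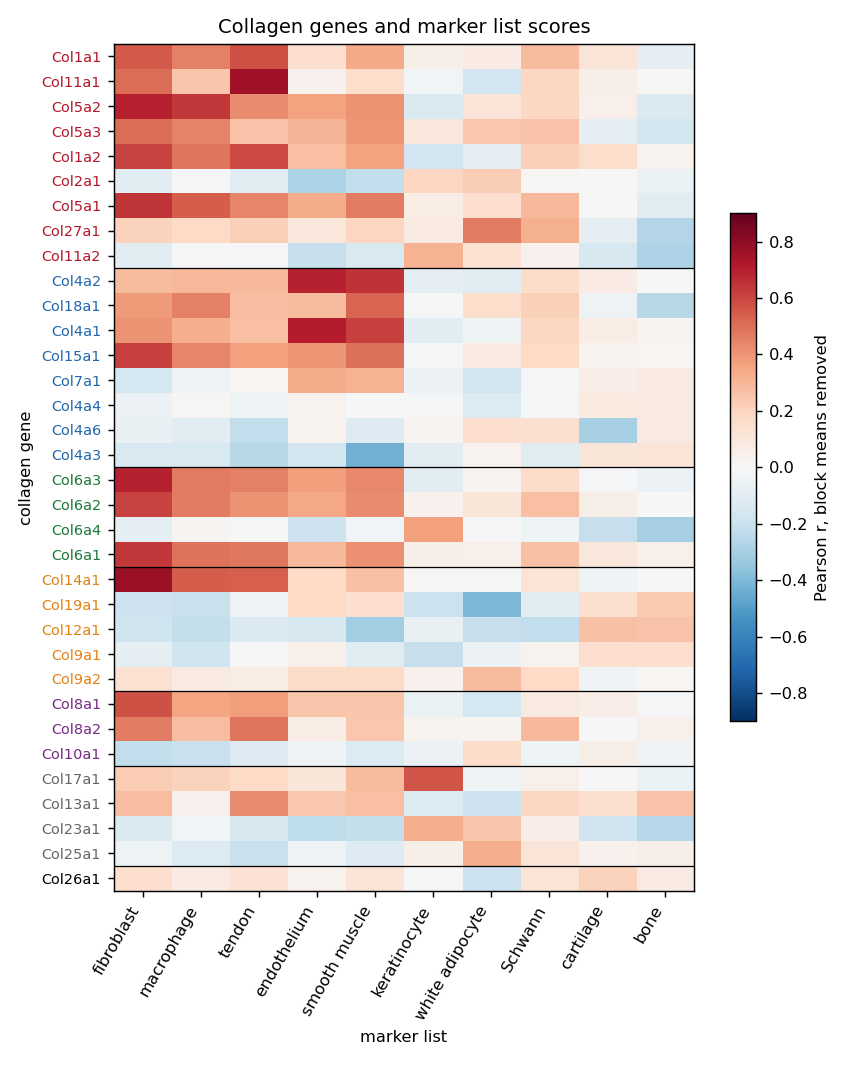
Rows are the 34 collagen genes grouped by class, columns are scores of 10 marker lists, and colour gives Pearson's r over 285 mice after the mean of each block of 20 mouse numbers was removed. Among the dark cells are Col14a1 (0.78), Col5a2 (0.701) and Col6a3 (0.691) with fibroblast, Col11a1 with tendon (0.756), and Col4a1 (0.707) and Col4a2 (0.694) with endothelium.

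Collagen levels also differed along the mouse numbers, the order taken from the sample names. In 16 blocks of 20 consecutive numbers, holding 12 to 20 mice each, 22 of 34 collagens (64.7%) had an adjusted p under 0.05 in limma's F test with at least 20% of their variance between blocks, against 45.8% of all features. In blocks of 40 numbers 14 collagens (41.2%) were called, against 27.5%. With the first component as a covariate 16 (47.1%) were called, against 42.2%, a share close to that of all features. Without the outlying arrays 19 (55.9%) were called, against 45%. In blocks of 20 over all mice, Col11a1 had 62.3% of its variance between blocks, Col4a2 53.8%, Col27a1 46.5%, Col13a1 40.8% and Col1a1 38.8%. Col7a1, Col9a1 and Col9a2 had under 9% and adjusted p of 0.0709, 0.101 and 0.0661. The lowest block median of Col1a1 was -0.84, in numbers 131 to 150, and the highest 0.75, in 271 to 290. Of the 13 genes above, all but Col14a1 had their lowest block median in 131 to 150. Col11a1 was at 1.29 in 271 to 290, where its lowest mouse was at 0.65, and at 1.11 in 291 to 310. In numbers 91 to 270 its block medians lay between -0.34 and 0.06. The tendon genes Fmod and Kera were at 1.88 and 2.24 in 271 to 290 and at -0.79 and -1.40 in 251 to 270. Col4a2 followed another course, with block medians of -0.48 in 131 to 150 of 0.70 in 251 to 270 and of 0.74 in 291 to 310. Col17a1 had its highest block median, 0.62, in 331 to 350, where Krt14 was at 0.68. What the number stands for is not given in the labels, and its part in these levels was not tested.

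**Figure D5:**
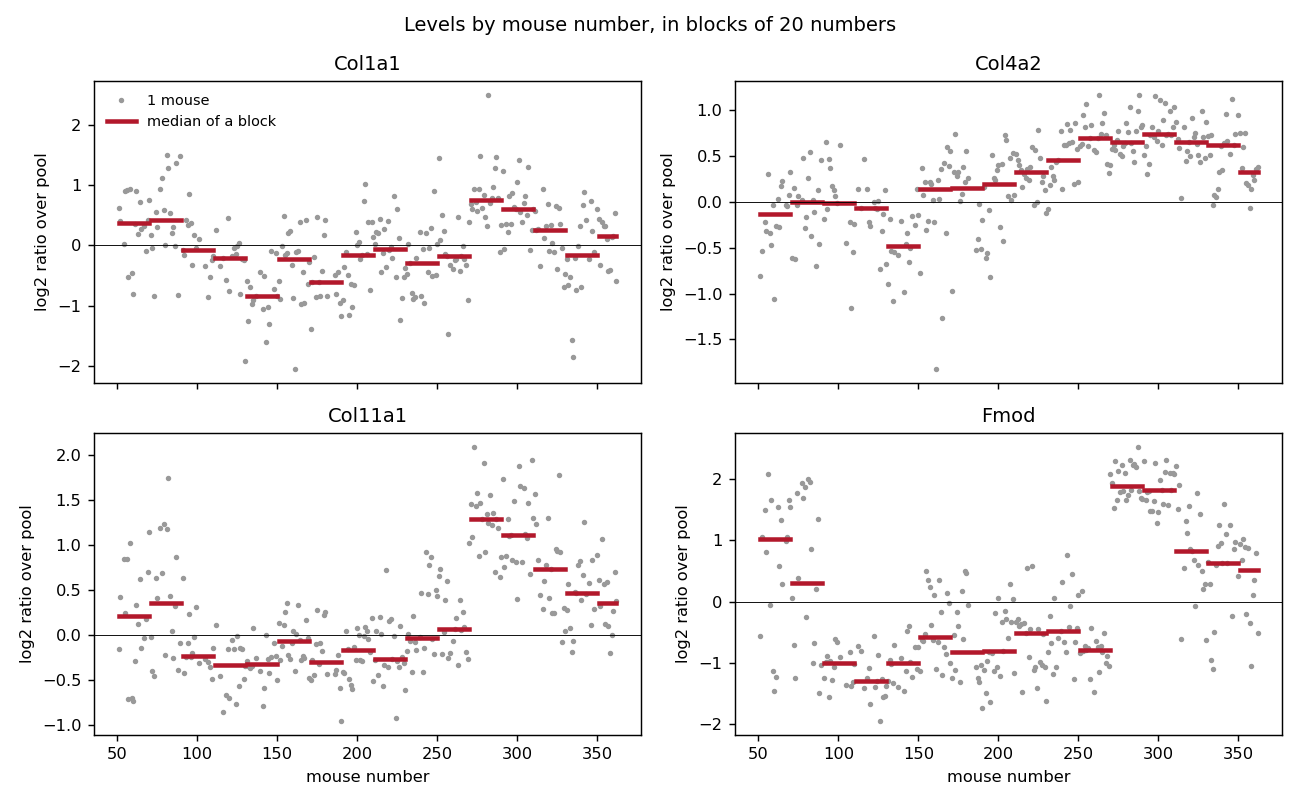
The horizontal axis is the mouse number and the vertical axis the log2 ratio of mouse over pool, for 3 collagens and the tendon gene Fmod. Grey points are single mice and red bars are medians of blocks of 20 numbers. Col11a1 and Fmod step up together at 271 (block medians 1.29 and 1.88), and Col4a2 rises from its low at 131 to 150 (-0.48).

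Pairs inside the group of 13 were also compared with block means removed. The median r of the 78 pairs was then 0.638. Col4a1 with Col4a2 had 0.897, Col6a1 with Col6a2 0.864, Col5a1 with Col5a2 0.793 and Col1a1 with Col1a2 0.644.

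Several chains were closest to genes on none of the pathway lists, outside the group of 13 and also inside it. By the highest r over all named genes, a rule applied after values were seen and given as a description, Col6a4 was nearest to Defa3 (0.915), Col23a1 to Slc39a9 (0.921), Col12a1 to Ovol1 (0.885), Col4a3 to Scgb1c1 (0.883), Col11a2 to Fbn2 (0.868) and Col2a1 to Gria1 (0.731). Their r with the first component was -0.345 for Col6a4, -0.68 for Col23a1, -0.313 for Col12a1, -0.419 for Col4a3, -0.447 for Col11a2 and -0.31 for Col2a1. The collagens of the group of 13 had positive values there, from 0.253 for Col5a3 to 0.778 for Col4a2. Chains outside the group went both ways, with positive values for Col11a1 (0.62) and Col13a1 (0.57) among others. Inside the group, Col1a2 was nearest to Serpinf1 (0.842) and Col18a1 to Dap (0.858), which are likewise on none of the pathway lists. Neighbouring collagen genes did not all move together: Col9a1 and Col19a1, side by side on chromosome 1, had r = 0.174, and Col18a1, 2 protein-coding genes from Col6a1, had r = 0.643 with it.

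The probes behind 3 genes limit what their values mean. For Col1a1, 1 probe carries the mouse gene's identifier and was used. Another 3 probes bear the same symbol with an identifier that is not a mouse gene, and they were set aside on that ground alone. Their r with the probe used was -0.294, -0.108 and -0.35. Col1a2 is the mean of 2 probes that had r = 0.144 with each other, and Col23a1 of 2 with r = 0.317. When all probes of a symbol were averaged, r between Col1a1 and Col1a2 was 0.589, and with the probe of largest SD for each gene it was 0.782.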

How the data were processed

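Arrays of 285 mice were compared with a common pool. The deposited values, which the authors processed by steps not given in the sources used here, were taken as the log10 of mouse over pool and converted to log2. Base and sign are inferred: values end at 2 and -2 (a 100-fold ratio), with 471 and 178 values there. Of 23560 probes, 23510 had values on at least 80% of arrays, and the 0.0972% missing values were set to the probe's mean. GEO's platform table gave 1 symbol for 13653 probes, several for 48 and none for 9859, and 12650 were named through Entrez IDs. Probes of 1 gene were averaged, which left 21611 features. Before that, 99 probes with a non-mouse identifier were set aside as unnamed, because a probe with a mouse identifier held their symbol. Other probes with a non-mouse identifier kept the platform's symbol and count among the named genes.

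limma 3.58.1 in R 4.3.3 fitted every feature on Col1a1, Col4a1 or a score of a marker list, and an F test compared blocks of 20 mouse numbers. P-values were adjusted over all features by Benjamini and Hochberg. Calls needed an adjusted p under 0.05 with an absolute r of 0.3, or 20% of variance between blocks. On simulated data the fit on Col1a1 recovered 100% of 200 genes made with an absolute r of 0.5, with 0 false calls. The other simulated features were independent of each other, unlike those of the arrays. That run checks the code and does not measure false calls in these data. Clusters were called by a mixture of normals. The mice are separate animals with 1 array each. Collagens, pairs and lists were chosen with earlier results of these data known. The endothelium, keratinocyte, white adipocyte and fibroblast fits were added after values were seen. Named genes were all collagens, the 10 highest and 5 lowest others for Col1a1 and Col4a1, and the 4 of largest absolute r with Col1a1 on each pathway list. Others named were chosen after their values were seen.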

Additional observations from a re-analysis of the deposited data

How the results depend on the processing

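The counts of rising collagens stayed within 16 to 18 for Col1a1, 10 to 17 for Col4a1, 13 to 17 for the macrophage score and 15 to 18 for the fibroblast score over 10 alternatives each (another probe rule, scaled arrays, only the 143 lower or 142 higher mouse numbers, without 12 outlying arrays, ranks, block or first component as covariate), and positive pairs within 12 to 14 of 18. Within the clusters of 85 and 200 mice the tendon count was 12 and 12, not 19. The endothelium count of 10 was 2 among higher numbers (against 1.96% of features) and 3 with the first component (against 3.93%). The keratinocyte count of 4 was 1 with the largest-SD probe, among higher numbers and with the first component. The white adipocyte count of 1 was 3 with scaled arrays, 4 among higher numbers and 2 among lower numbers, without outlying arrays, with ranks, with the block and with the first component. Blocks of 40 numbers gave 14 collagens and the first component as a covariate 16, not 22. Reading the values as log2 gave a median SD of 0.09, not 0.29. Reversed were Col23a1 with Col4a1 (0.165, first component), Col25a1 with Col4a1 (0.199, higher numbers, and 0.122, first component) and Col11a1 with Col11a2 (0.365, first component). The cause was not tested. Over all features the rising share ran from 1.85% to 8.85% for Col1a1, 3.81% to 21% for Col4a1, 1.79% to 8.45% for tendon, 1.96% to 12.3% for endothelium, 0.731% to 18.7% for keratinocyte and 3.7% to 15.4% for white adipocyte. The falling share ran from 0.632% to 13.9% for Col1a1, 2.24% to 30.8% for Col4a1, 1.4% to 16.2% for tendon, 0.634% to 4.12% for macrophage and 0.88% to 13.1% for endothelium. With scaled arrays the share of calls that rose went from 46.7% to 64.4% for Col1a1, from 38.1% to 48.8% for Col4a1, from 33.4% to 48.4% for tendon, from 79.9% to 91% for macrophage, from 70.5% to 89.9% for keratinocyte from 56.9% to 75.8% for white adipocyte and from 48.1% to 55.7% for endothelium, and for fibroblast it went down, from 93.9% to 89.7%. No paired analysis was possible because there is 1 group of mice. Probe signal over background is not analysed here, so dim collagens cannot be told from stable ones.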
